A study of Mus musculus with 6 samples.

Results

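The genes followed in mouse olfactory basal cells belong to antigen presentation by major histocompatibility complex (MHC) class II molecules: Ciita, Cd74, H2-Aa, H2-Ab1, H2-Eb1, H2-Eb2, H2-DMa and H2-DMb1. They were chosen by name, in view of earlier values of their promoter cut sites in uninjured and injured cells, and make up 8 of the 21938 protein-coding genes measured. The assay was single-cell ATAC-seq, in which a transposase cuts accessible DNA, so that each cut site reports an open stretch of chromatin and not an RNA level. Cells came from the dorsal olfactory epithelium of adult mice carrying Krt5CreER and 2 Rosa26 LSL-YFP alleles. In this pair of transgenes CreER is made in cells that use the Krt5 promoter. Once active, it marks those cells and their descendants with YFP. YFP-positive cells that excluded propidium iodide were sorted from 3 untreated controls, called uninjured, and from 3 samples taken 24 h after intraperitoneal methimazole, a drug that destroys the olfactory epithelium, called injured. In both groups replicate 1 was aged 8 weeks, replicate 2 was aged 6 weeks and replicate 3 was aged 6 to 7 weeks. The labels call all cells horizontal basal cells, the quiescent stem cells of this epithelium. The mark is a lineage mark, so a sorted cell can also be a descendant of a Krt5-positive cell.

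MHC class II molecules are pairs of an alpha and a beta chain that hold peptides on the cell surface for CD4 T cells. Professional antigen-presenting cells use them all the time, and many epithelial cells open these genes when interferon-gamma acts on them. The chains, the invariant chain and the peptide-loading genes share a promoter module of an X box, bound by the RFX complex, and a Y box, bound by NF-Y, and the coactivator CIITA is recruited to it. Ciita itself has alternative promoters, of which those used by dendritic cells and by B cells lie upstream of the one induced by interferon-gamma.

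Stretches before the RefSeq starts of 4 of these genes are shown because they lie within windows measured below, whether much or little open. They are from RefSeq, build GRCm38.p6, and are written 5′ to 3′ on the gene's own strand. Capitals mark matches to an X box (AGNNAC, then any 2 bases, then ATG), to its shorter form (CTNGCAAC, which can overlap it) and to a Y box (CCAAT, or ATTGG where it lies on the other strand).
H2-Eb1, chr17:34305737-34305866, plus strand: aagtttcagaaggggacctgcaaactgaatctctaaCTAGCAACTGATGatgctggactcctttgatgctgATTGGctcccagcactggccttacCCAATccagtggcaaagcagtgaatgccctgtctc
H2-Eb2, chr17:34325535-34325664, plus strand: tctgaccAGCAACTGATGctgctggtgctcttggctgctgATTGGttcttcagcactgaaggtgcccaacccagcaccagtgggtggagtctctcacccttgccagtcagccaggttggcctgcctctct
H2-Aa, chr17:34287824-34287953, minus strand: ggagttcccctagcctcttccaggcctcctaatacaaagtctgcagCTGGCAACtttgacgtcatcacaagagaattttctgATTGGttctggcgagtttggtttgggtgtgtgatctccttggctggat
H2-DMb1, chr17:34153087-34153116, plus strand: ggtttacctAGTAACTGATGatgctaggct
In H2-Eb1 and H2-Eb2 the X box and the Y box are 22 bases apart, and in H2-DMb1 they are 23 bases apart. The X box begins 92 bases before the RefSeq start of H2-Eb1, 133 before that of H2-Eb2 and 95 before that of H2-DMb1. The RefSeq start of H2-DMb1 is at position 34153191. Its printed stretch lies downstream of the annotated start at position 34153072, around which its opening was measured. The motif letters were chosen with these promoters in view, so their presence here is a description and not a site shown to be bound. Over 250 bases before each start and on both strands, the X box was found in 2.6% of 32851 promoter entries, the short form in 2.84%, the Y box in 33.8%, and X and Y boxes together in 1.08%. The 6 entries found for members belong to 5 genes. The X box was in 3 of the 6, the short form in 3 and the Y box in 5. Ciita, Cd74 and H2-Ab1 had no entry.

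Of the 8 genes 6 lie together on chromosome 17 of GRCm38, the build used for every position here. H2-DMa lies at chr17:34119541-34139101, H2-DMb1 at chr17:34153072-34160230, H2-Ab1 at chr17:34257689-34269419, H2-Eb1 at chr17:34305867-34316674 and H2-Eb2 at chr17:34325665-34341412, all on the plus strand, and H2-Aa lies at chr17:34282744-34287823 on the minus strand. Cd74 lies at chr18:60803848-60812652 and Ciita at chr16:10480059-10528418, both on the plus strand. The annotation gives H2-Eb2 1 start, Cd74, H2-Aa and H2-DMb1 3 each, H2-Eb1 5, H2-Ab1 7, and H2-DMa and Ciita 8 each. A promoter level is the number of cut sites within 1000 bp of any annotated start, as CPM (counts per 1000000) of all cut sites in the cells of the library. The window of H2-DMa is shared with Brd2, a chromatin reader that starts 188 bp from an H2-DMa start on the opposite strand, so cut sites of these genes cannot be told apart there.

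Wherever 3 values of a group follow each other below, they are those of replicates 1, 2 and 3. Cells were barcodes with 2000 or more fragments, of which uninjured libraries held 454, 889 and 629 and injured libraries 1338, 420 and 746, with 14825320 to 44875242 cut sites a library. Cut sites in promoter windows, counted once per gene, came to 39.3 to 41.6% of all cut sites in uninjured libraries. In injured libraries they came to 31.5 to 35.1%, so a CPM falls for most promoters after injury. Windows of genes can overlap and a cut site there counts more than once, so the true shares are smaller. The promoter shares and promoter-based CPM below use the same count. All 10 markers of horizontal basal cells, including Krt5, Krt14 and Trp63, had promoter cut sites in every library, summing to 266 to 339 CPM in uninjured and 211 to 250 CPM in injured libraries. The 7 sustentacular markers summed to 84.5 to 88.9 CPM and 40.1 to 50.6 CPM. Uninjured replicate 3 stood apart in its mix of cells: 25.6% of its cells were in clusters 1 and 6, against 74.9% and 68.1% in the other uninjured libraries and at most 2.14% in injured ones. Injured replicate 3 stood apart too, with 19.7% of its cells in clusters 2 and 4 against 73.8 and 58.6% in the other injured libraries, 41.6% in clusters 3, 5 and 8 against 18.8 and 20.2%, and mature neuron markers at 97.9 CPM against 44.4 and 38.6 CPM. Of 4420 distinct barcodes 53 were cells in more than 1 library, and 34 of these were shared by uninjured replicate 3 and injured replicate 3, against 0 to 4 for other pairs.

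Class II genes are a hallmark of immune cells, so such cells were looked for first. A cell was called immune-marked when it had 3 or more cut sites over the gene bodies of Ptprc (the leukocyte phosphatase CD45), Laptm5, Spi1 (the myeloid factor PU.1) and Adgre1 (the macrophage receptor F4/80). This held for 16.3, 17 and 29.4% of uninjured cells and for 16.2, 24.8 and 29.6% of injured cells. The mark rose with depth, from 2.68% of the 1119 cells with fewest fragments to 53.6% of the 1119 with most. Marked cells held 31.2 to 48.9% of the class II promoter cut sites of their library and 35.4 to 51.7% of all its cut sites. The smaller share was at class II promoters in every library. Their share of the cut sites of all promoters was not computed, so the smaller share may not be particular to class II genes. A narrower mark, cut sites at the promoters of 2 or more of those 4 genes, held for 17 cells in all, with 0 to 7 in a library.

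Summed over these 17 cells, each of the 8 genes stood lower than over the other cells, but 78.4% of the cut sites in that sum came from 2 barcodes of cluster 13. One, in injured replicate 2, had 1746401 fragments and held 14.7% of that library's cut sites, and the other, in injured replicate 1, had 555750. Over the 15 cells without these barcodes Ciita had no cut site, which allows up to 2.37 CPM (3 counts), beside 5.26 CPM in the cells outside the 17. Cd74 stood at 11.1 CPM (95% Poisson interval 6.04 to 18.6) beside 12.5 CPM, H2-Aa at 4.74 CPM (1.74 to 10.3) beside 7.01 CPM and H2-Ab1 at 14.2 CPM (8.43 to 22.5) beside 16.2 CPM. H2-Eb1 stood higher, at 27.6 CPM (19.3 to 38.4) beside 18.1 CPM, as did H2-DMa at 111 CPM (93.7 to 131) beside 87.8 CPM. For Cd74, H2-Aa, H2-Ab1, H2-Eb2 and H2-DMb1 the interval of the 15 cells holds the level of the other cells. Poisson and Wilson intervals here cover counting error only, and the 2 ends of a fragment are not independent, so they are too narrow. Over all cells the promoters of 10 macrophage markers summed to 25.1 to 26.5 CPM before and 31.2 to 43.0 CPM after injury, with 2 of them at 0 in uninjured replicate 1. The 8 markers of dendritic and Langerhans cells summed to 33.4 to 38.4 CPM before and 26.8 to 33.1 CPM after injury, with 1 of them at 0 in uninjured replicate 1. The 5 B-cell markers gave 15.4 to 22.1 CPM and 19.95 to 24.6 CPM, and the 6 of T and NK cells 20.8 to 24.2 CPM and 15.5 to 20 CPM. The 5 neutrophil markers gave 1.89 to 2.29 CPM and 2.61 to 4.77 CPM, and the 4 genes of the immune mark 2.50 to 3.87 CPM and 4.59 to 6.50 CPM, with 1 of them at 0 in uninjured replicate 1. The macrophage, neutrophil and immune mark lists were thus higher, and the dendritic and T and NK lists lower, in every injured library. Of 15933 promoters with a mean of 1 CPM or more, 49.0% were likewise lower in every injured library and 4.36% higher. With immune-marked cells left out, 32.8% of 15814 promoters were lower. A lower list is thus shared with promoters at large. Without immune-marked cells the T and NK list stayed lower in every injured library, at 19 to 22.7 CPM before and 14.7 to 18.6 CPM after injury. The other 4 then overlapped between groups, with macrophage markers at 25.3 to 29.0 and 28.4 to 44.5 CPM, dendritic markers at 34.1 to 37.9 and 27.4 to 37.3 CPM, neutrophil markers at 1.66 to 2.45 and 2.38 to 3.65 CPM and the genes of the mark at 0.525 to 1.56 and 0.928 to 1.97 CPM. The part of such cells in the class II levels was not tested.

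The group differences below are descriptions without a test, since the contrast of uninjured with injured cells led to the choice of these genes. A lower sum can come from fewer cells with an open promoter or from less opening in each cell, and sums cannot tell these apart. The 8 promoters together stood at 224, 175 and 175 CPM before and at 134, 126 and 141 CPM after injury. The means were 191 ± 28.8 and 134 ± 7.58 CPM (SD, n = 3 each), a difference of -0.50 in log2(CPM + 1). All injured libraries lay below all uninjured ones. In 6 of the 8 genes every injured library was below every uninjured library, and the same was true of 49.0% of 15933 promoters with a mean of 1 CPM or more. The median difference was -0.52 over the 8 genes and -0.26 over those promoters. Much of the count of 6 is thus shared with promoters at large, while the size of the median is further from 0 for the class II genes.

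Ciita, the coactivator that class II transcription depends on, stood at 6.81, 8.38 and 5.67 CPM before and at 3.74, 3.50 and 3.64 CPM after injury. Every injured library was below every uninjured one, and the injured libraries lay close together. The means were 6.95 ± 1.36 and 3.63 ± 0.120 CPM (SD, n = 3), a difference of -0.77 in log2(CPM + 1). Without immune-marked cells the gap widened: the levels were 8.31, 9.77 and 6.77 CPM before and 3.83, 2.56 and 3.31 CPM after injury, a difference of -1.13. In immune-marked cells alone Ciita stood at 4.14, 6.56 and 4.36 CPM before and 3.59, 4.42 and 3.96 CPM after injury, a difference of -0.25, and the groups overlapped.

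Cd74, the invariant chain that guards the peptide groove and guides class II molecules to the endosome, differed most of the 8 over all cells. It stood at 26, 17.3 and 12.2 CPM before and at 9.94, 8.95 and 6.72 CPM after injury. Uninjured replicate 1 was far above the other uninjured libraries, but the lowest uninjured library was still above the highest injured one. The means were 18.5 ± 7.00 and 8.54 ± 1.65 CPM (SD, n = 3), a difference of -0.99. Without immune-marked cells the difference was -0.80 and the groups again did not overlap.

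H2-Aa and H2-Ab1 encode the alpha and beta chains of the I-A molecule. H2-Aa stood at 9.51, 8.11 and 8.65 CPM before and at 5.64, 5.02 and 5.63 CPM after injury, a difference of -0.60. H2-Ab1 stood at 23.4, 17.6 and 19.7 CPM before and at 13.9, 13 and 12.5 CPM after injury, a difference of -0.58. In neither gene did the groups overlap. The spread within a group was smaller than the gap between groups in H2-Aa, while in H2-Ab1 the uninjured libraries spread more widely than that gap. Without immune-marked cells the differences were -0.53 for H2-Aa and -0.51 for H2-Ab1, again without overlap.

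H2-Eb1 and H2-Eb2 encode beta chains of the I-E type. H2-Eb1 stood at 25.2, 19.9 and 19.1 CPM before and at 16.8, 13.9 and 14.9 CPM after injury, a difference of -0.46, with no overlap. Without immune-marked cells it stood at 26.1, 20.7 and 18.4 CPM against 18.7, 14.8 and 13.8 CPM, so injured replicate 1 passed uninjured replicate 3. H2-Eb2 had the lowest CPM of all members, without regard to window length, at 3.24, 0.549 and 1.36 CPM before and 1.34, 1.48 and 0.952 CPM after injury. Its groups overlapped, and its difference of -0.15 rested on uninjured replicate 1, without which it was 0.23.

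H2-DMa and H2-DMb1 encode chains of the DM molecule, which swaps the invariant chain peptide for an antigen peptide. H2-DMa, in the window it shares with Brd2, stood at 114, 90.6 and 97.9 CPM before and at 72.9, 70.6 and 86.4 CPM after injury, a difference of -0.39 with no overlap. H2-DMb1 stood at 16.5, 12.1 and 9.98 CPM before and at 9.96, 9.33 and 10.2 CPM after injury. Its groups overlapped, since uninjured replicate 3 lay below injured replicate 3, and its difference of -0.33 was -0.15 without uninjured replicate 1.

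**Figure D1:**
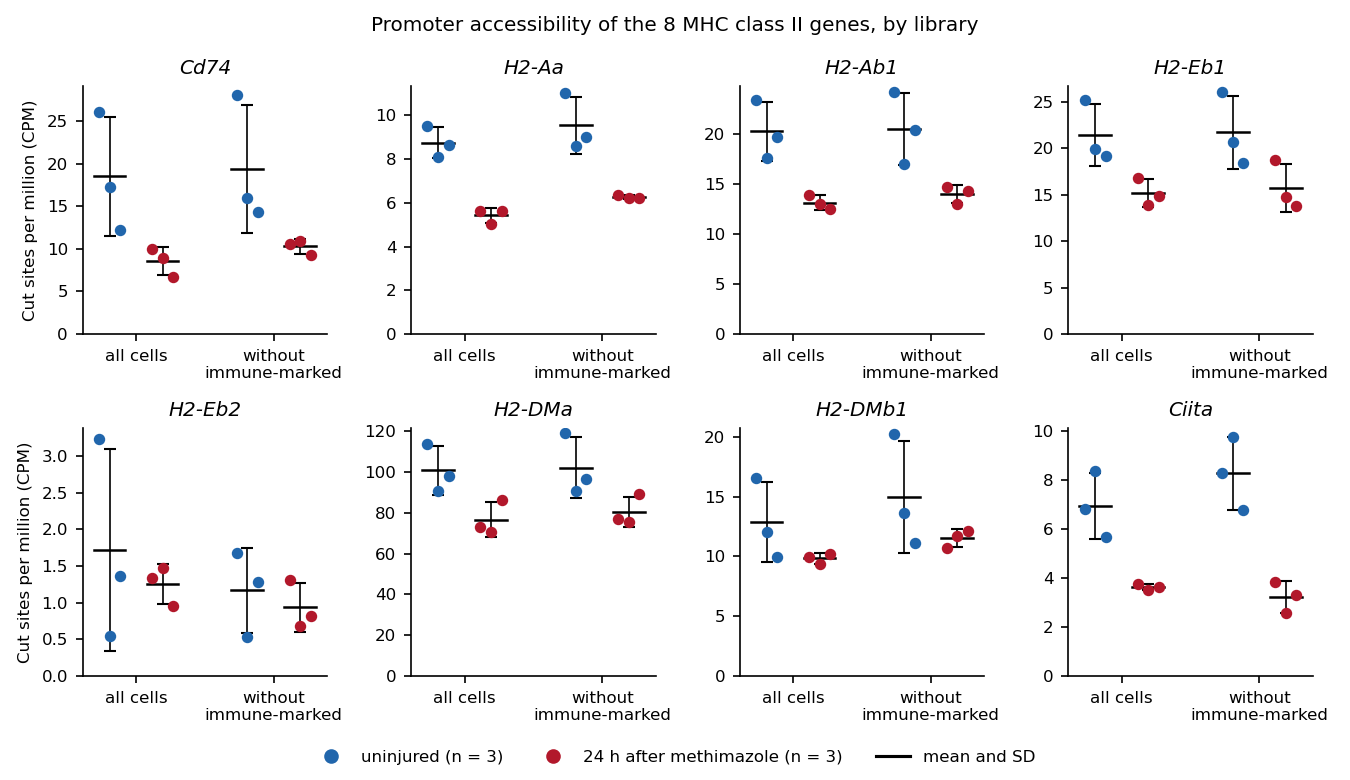
Promoter CPM (vertical axis) of the 8 class II genes in each of the 6 libraries, over all cells and over cells without the immune mark, with points for libraries and the group mean and SD. Ciita and Cd74 are lower in all injured libraries in both cell sets, while H2-Eb2 and H2-DMb1 overlap between groups.

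Since H2-DMa makes up more than any other member of the sum, the 7 other genes were also summed, and stood at 111, 83.9 and 76.7 CPM before and 61.3, 55.2 and 54.5 CPM after injury, a difference of -0.64. Set against promoter cut sites in place of all cut sites, the 7 genes stood at a promoter-based CPM of 267, 213 and 189 before and at 189, 175 and 155 after injury. On that scale uninjured replicate 3, the library with few cells of clusters 1 and 6, was level with injured replicate 1. Without immune-marked cells 5 of the 8 genes had every injured library below every uninjured one, against 32.8% of 15814 promoters, with medians of -0.47 over the genes and -0.17 over the promoters.

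Counted over the gene body plus 2000 bp upstream, 6 of the 8 genes had every injured library below every uninjured one, against 29.3% of genes, and also 6 of 8 without immune-marked cells, against 20.8%. Cd74 then stood at 43.4, 29.6 and 21.1 CPM before and 19.4, 17.7 and 15.4 CPM after injury, and H2-Ab1 at 42.0, 33.4 and 33.5 CPM against 22, 20.9 and 22.2 CPM. The differences were -0.76 for Cd74, -0.71 for H2-Ab1 and -0.32 for Ciita. Ciita was thus closer between groups over its long body, at 28.1, 28.1 and 21.1 CPM against 20.2, 20.3 and 20.5 CPM, than at its starts.

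TMM scaling, which sets the typical promoter to no change (median 0.01 over 18466 promoters tested), left a smaller difference. All 8 genes kept a lower level after injury, where 48.1% of promoters did, and their median difference was -0.29. In 3 of the 8, H2-Aa, H2-Ab1 and Ciita, every injured library was below every uninjured one, against 14.3% of promoters. The log2 differences were -0.83 (SE 0.27) for Cd74, -0.68 (0.23) for Ciita, -0.43 (0.18) for H2-Aa and -0.35 (0.13) for H2-Ab1. H2-Eb1 stood at -0.23 (0.13), H2-DMa at -0.14 (0.08), and H2-DMb1 and H2-Eb2 at -0.12 (0.18 and 0.55). In the edgeR quasi-likelihood fit over these promoters 2.56% were called higher and 1.78% lower after injury at an adjusted p under 0.05, and 0 of the 8 class II genes were. Without uninjured replicate 1 the difference of Cd74 was -0.55, those of H2-Eb1 and H2-DMa were -0.12 and -0.06, and those of H2-DMb1 and H2-Eb2 turned to 0.07 and 0.64. H2-Eb2 was also above 0 without doublets (0.34), with windows of 500 bp (0.12), with the replicate block (0.05) and without injured replicate 3 (0.08).

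Levels of different genes were compared per kb of promoter window, as CPM per kb. A window joins the stretches around all annotated starts of a gene, so starts with few cut sites lower its value. H2-DMa with Brd2 was most open, at 9.44 to 15.2 CPM per kb over the 6 libraries. Cd74 followed at 5.93 to 12.7 before and 3.27 to 4.83 after injury, and H2-Eb1 at 4.61 to 6.08 before and 3.35 to 4.04 after. H2-Aa stood at 3.96 to 4.65 before and 2.46 to 2.75 after injury. Then came H2-Ab1, at 2.41 to 3.21 and 1.71 to 1.91, and H2-DMb1, at 1.78 to 2.95 and 1.66 to 1.82. Ciita stood at 0.992 to 1.47 and 0.614 to 0.655, and H2-Eb2 at 0.274 to 1.62 and 0.476 to 0.739. Neighbours in this order overlapped in uninjured libraries, except H2-Aa and H2-Ab1, and H2-DMb1 and Ciita. Cd74 ranked at percentiles 72.5 to 90.8 of all protein-coding promoters before injury and 57.8 to 73.1 after, while Ciita ranked at 35.9 to 40.8 and 31.8 to 33.2.

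The starts of a gene did not all take part. Starts were grouped, each group was given a window of 500 bp either side, and cells without the immune mark were used. The 8 annotated starts of Ciita fell into 3 groups, and nearly all of the signal was at the third, the most downstream, at chr16:10489746-10489783. It stood at 6.58, 6.82 and 4.95 CPM per kb before and at 2.69, 1.65 and 2.01 CPM per kb after injury. The lowest uninjured library was well above the highest injured one. The means were 6.12 ± 1.02 and 2.12 ± 0.531 CPM per kb (SD, n = 3), a difference of -1.19 in log2(CPM per kb + 1). The first group, at chr16:10480059-10480164, stayed at 0 to 0.210 CPM per kb in all 6 libraries and the second, at chr16:10488178-10488279, at 0 to 0.341 CPM per kb. The annotation used here does not number the promoters of Ciita, so no group was matched to a numbered promoter.

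Immune-marked cells had the same order of Ciita starts, with 0.0563 CPM per kb at the first group, 0.249 (95% Poisson interval 0.156 to 0.377, 22 cut sites in 13 cells) at the second and 3.23 at the third. In the 17 cells with cut sites at 2 or more immune promoters none of the 3 groups had a cut site, which allows up to 0.462, 0.464 and 0.492 CPM per kb (3 counts over the group). Most of the depth of these 17 cells is that of the 2 barcodes named above.

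**Figure D2:**
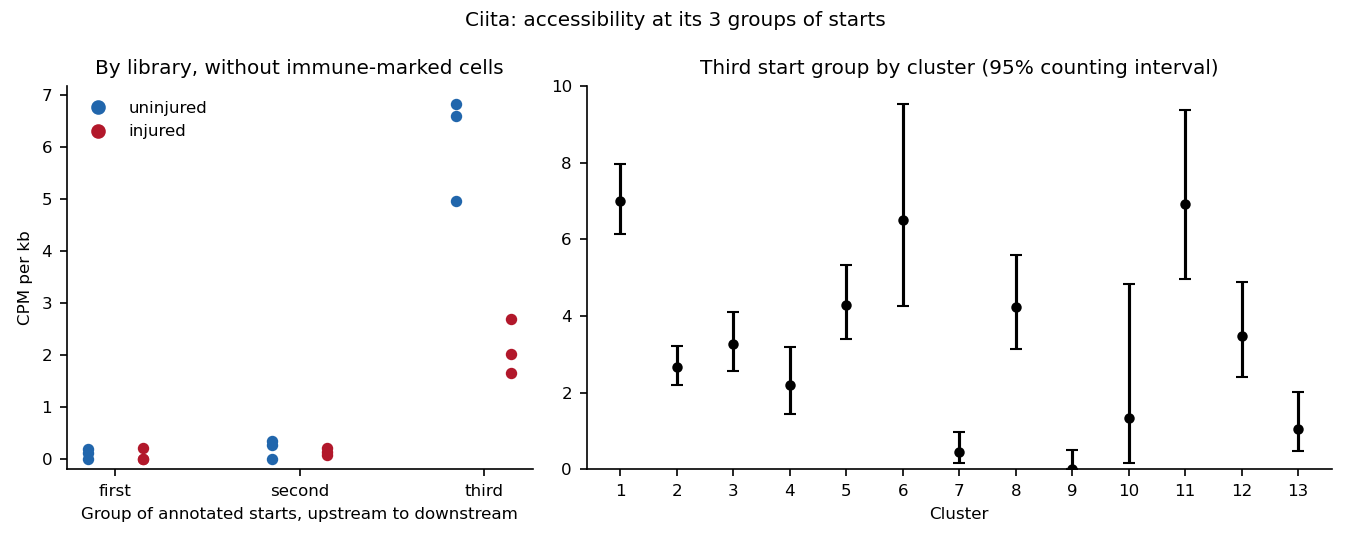
Cut sites at the 3 groups of Ciita starts, in CPM per kb, by library in cells without the immune mark (left) and, at the third group, by cluster over all cells with 95% counting intervals (right). The first and second groups stay at or below 0.341 in every library, and the third group stands at 7.01 in cluster 1 and 2.67 in cluster 2.

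H2-Eb1 had starts at which the groups did not overlap and a start at which they did, per total cut sites. On that scale most promoters fall after injury, and an overlap does not show that the groups are alike. At its first starts, chr17:34305867-34306017, just downstream of the printed X and Y boxes, it stood at 11.1, 8.81 and 7.66 CPM per kb before and at 6.60, 4.68 and 5.44 CPM per kb after injury, a difference of -0.63. At a start inside the gene, at position 34309575, it stood at 5.04, 4.66 and 5.95 CPM per kb before and at 6.07, 5.98 and 4.52 CPM per kb after injury, a difference of 0.06. Over all cells the inner start differed by -0.12, so its direction turned with the set of cells. The first group of starts was lower in every injured library, while the inner start overlapped between groups in both sets of cells. No test of the difference between the starts was made, as the same contrast led to the choice of the gene.

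In H2-Ab1 the most open starts were inside the annotated gene, at chr17:34263209-34263331, with 13.9, 9.32 and 12.6 CPM per kb before and 8.42, 6.92 and 8.37 CPM per kb after injury, a difference of -0.52. The upstream start at position 34257689 gave a difference of -0.38, and 2 further start groups stayed at or below 0.583 CPM per kb. In H2-DMa the starts at chr17:34119541-34119588, 823 bp from a Brd2 start, had the highest mean in each group. They stood at 36.5, 27.5 and 33.4 CPM per kb before and 26.3, 22.5 and 33.2 CPM per kb after injury. The difference was -0.25, and the groups overlapped. The starts at chr17:34135628-34135654 passed them in uninjured replicates 1 and 2 and in injured replicate 2. The starts 188 bp from a Brd2 start had a difference of -0.67, from 18.1, 14.9 and 17.4 CPM per kb to 9.06, 9.59 and 12 CPM per kb. Those at chr17:34135628-34135654, 12994 bp from any Brd2 start, stood at 37.8, 28.8 and 26.4 CPM per kb before and 23.7, 23.6 and 25.4 CPM per kb after injury, a difference of -0.33. At these starts, which are those of H2-DMa alone, the groups did not overlap, with uninjured replicate 3 only just above injured replicate 3.

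**Figure D3:**
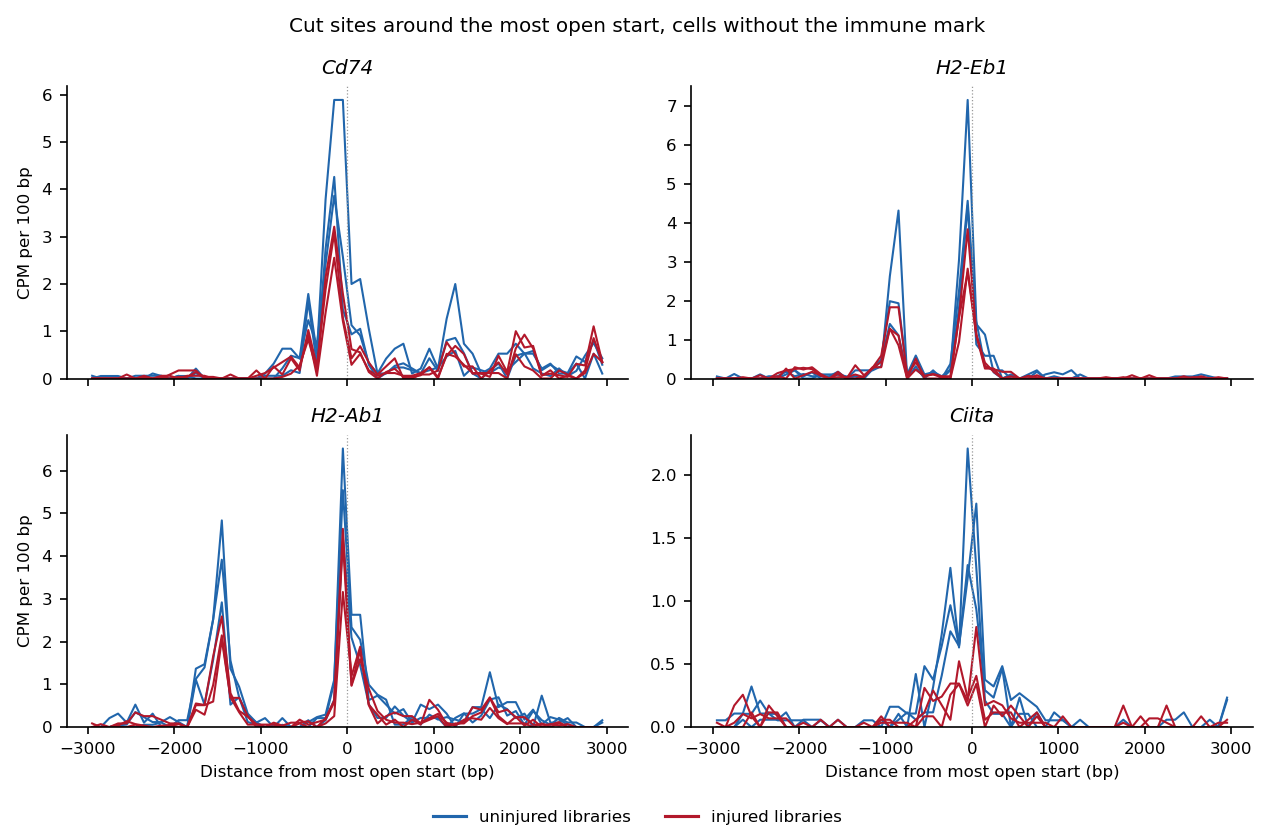
Cut sites (CPM per 100 bp, vertical axis) within 3000 bp of the most open start of Cd74, H2-Eb1, H2-Ab1 and Ciita, a line per library, cells without the immune mark. Each gene peaks at its start, and H2-Ab1 and H2-Eb1 have another peak upstream with a median cut site 1469 and 922 bp from the start.

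The profiles held peaks upstream of the most open starts of H2-Ab1 and H2-Eb1, in windows chosen after the profiles had been seen. The H2-Ab1 window, chr17:34261409-34262008, lies 1201 to 1800 bp upstream and in an intron of the longest H2-Ab1 transcript. It had 12.5, 11.2 and 7.35 CPM before and 6.49, 5.04 and 4.87 CPM after injury. All injured libraries lay below all uninjured ones, with means of 10.4 ± 2.68 and 5.47 ± 0.888 CPM (SD, n = 3) and a difference of -0.79. The H2-Eb1 window, chr17:34304767-34305166, lies 701 to 1100 bp upstream, over an exon of the antisense gene Gm20513. It had 7.26, 4.51 and 3.09 CPM before and 4.35, 2.56 and 2.67 CPM after injury, a difference of -0.47, and the groups overlapped. The middle of the H2-Ab1 window is shown, read from the GRCm38.p6 genome, because its groups did not overlap, and it was chosen after its letters had been seen: capitals mark a Y box and the short X box form on the other strand. It has no match to the full X box, and the middle of the H2-Eb1 window has a Y box and neither X box form.
H2-Ab1 upstream window, chr17:34261665-34261814, plus strand: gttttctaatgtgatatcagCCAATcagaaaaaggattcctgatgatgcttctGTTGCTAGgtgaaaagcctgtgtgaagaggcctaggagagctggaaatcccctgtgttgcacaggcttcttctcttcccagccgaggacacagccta

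Cells were clustered without the windows of the 8 genes, giving 13 clusters. In clusters 10 and 13, of 125 and 75 cells, the list with the highest median against the other cells was that of neutrophils. In the other clusters it was not an immune list. It was that of horizontal basal cells in clusters 1, 2, 4 and 6, and that of airway epithelium in clusters 3, 5 and 8. Cluster 10 had a median of 3775 fragments and 84.0% of its cells called doublets, its leading genes were Gpsm3 and Gng11, and those of cluster 13 were A2m and Gm49393. No gene of the neutrophil list was among the leading 10 of either. Without the cells of clusters 10 and 13 the class II level differed by -0.41 and the level without immune-marked cells by -0.44 in log2(CPM + 1). The 7 genes without H2-DMa were most open in cluster 1, at 123 CPM (95% Poisson interval 119 to 127). This cluster held 864 cells, 861 of them uninjured. Its leading genes in order were Tgtp1, Cox8b, Ccdc153, Irgm1, Pdzd3, Gm12185, Wscd1, Loxl2, Ces2h and Samd11. Its median basal marker was 0.517 log2 units above the other cells, beside 0.448 in cluster 4, 0.347 in cluster 6 and 0.281 in cluster 2. Cluster 6, with 278 cells mostly from uninjured libraries, was next at 97.7 CPM (88.0 to 108). Clusters 2 and 4, nearly all injured cells, stood at 66.4 and 67.3 CPM, and the stress keratins Krt16 and Krt6a were among the leading 10 genes of both, behind Gm14137 in cluster 2 and Nlrp1a in cluster 4. Clusters 3 and 5, led by genes such as F2, Depp1, Reg3g, Tff2 and Adh7, stood at 67.6 and 65.5 CPM, and cluster 8, most of it from uninjured replicate 3, at 75.4 CPM. Cluster 11, in which the median sustentacular marker was 2.73 log2 units above the other cells, stood at 50.1 CPM, and clusters 9 and 7, with raised neuron markers, at 42.4 and 31.9 CPM. Clusters 10 and 13, at 8.32 and 14.4 CPM, had only 7.43 and 6.08% of their cut sites in promoters, against 31.9 to 42.7% in the other clusters.

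Within uninjured libraries, cluster 1, with the basal list highest, was above cluster 5, with the airway list highest, in each. Cluster 1 held 273, 441 and 147 cells in these libraries and cluster 5 held 37, 60 and 160. The 7 genes stood at 144, 112 and 131 CPM in cluster 1 and at 72.2, 52.5 and 65.8 CPM in cluster 5. Cd74 stood at 39.0, 23.8 and 28 CPM against 11, 5.00 and 9.52 CPM, and H2-Aa at 13.3, 10.2 and 15.3 CPM against 5.52, 6.00 and 7.62 CPM. H2-Ab1 stood at 28.4, 24.6 and 32.0 CPM against 18.2, 7.50 and 17.4 CPM, and H2-Eb1 at 31.5, 26.2 and 29.0 CPM against 18.8, 18 and 15 CPM. Ciita was closer, at 7.06, 10.7 and 7.42 CPM against 5.52, 5.00 and 4.70 CPM, but it too was higher in cluster 1 in all 3 libraries, as was H2-DMb1. H2-DMa was lower in cluster 1 than in cluster 5 in uninjured replicate 1, at 124 against 137 CPM, and H2-Eb2 in uninjured replicate 3, at 1.27 against 1.34 CPM. Uninjured replicate 3 has a smaller share of cluster 1, yet in the 7-gene sum its cells of that cluster lay between the other uninjured libraries. In H2-Aa and H2-Ab1 they were the highest of the 3.

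In clusters 3 and 5, which hold cells of both groups, the groups did not separate. The uninjured sums of cluster 3 held only 23 and 40 cells. Cluster 5 had 1 injured library with 20 or more cells, replicate 3 with 82. With so few cells and libraries, a lack of separation does not show that the groups are alike. In cluster 3 the 7 genes stood at 82.0 and 50.7 CPM in uninjured replicates 1 and 2 and at 61.0, 75.2 and 66.9 CPM in the injured libraries. In cluster 5 injured replicate 3, at 66.7 CPM, lay within the range of the uninjured libraries. Cluster 9, with 1 library a group of 20 or more cells, stood at 70.3 CPM in uninjured replicate 3 and 34.6 CPM in injured replicate 3. In the injured libraries clusters 2 and 4 stood at 66.7, 67.1 and 63.4 CPM and at 71.1, 49.3 and 66.4 CPM. Beside these, clusters 3 and 5 stood at 61.0 to 75.2 CPM in injured libraries with 20 or more cells. In uninjured ones they stood at 50.7 to 82.0 CPM. Cluster 1 holds 3 injured cells and clusters 2 and 4 hold 5 uninjured ones, so in these clusters cell state and injury cannot be told apart.

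**Figure D4:**
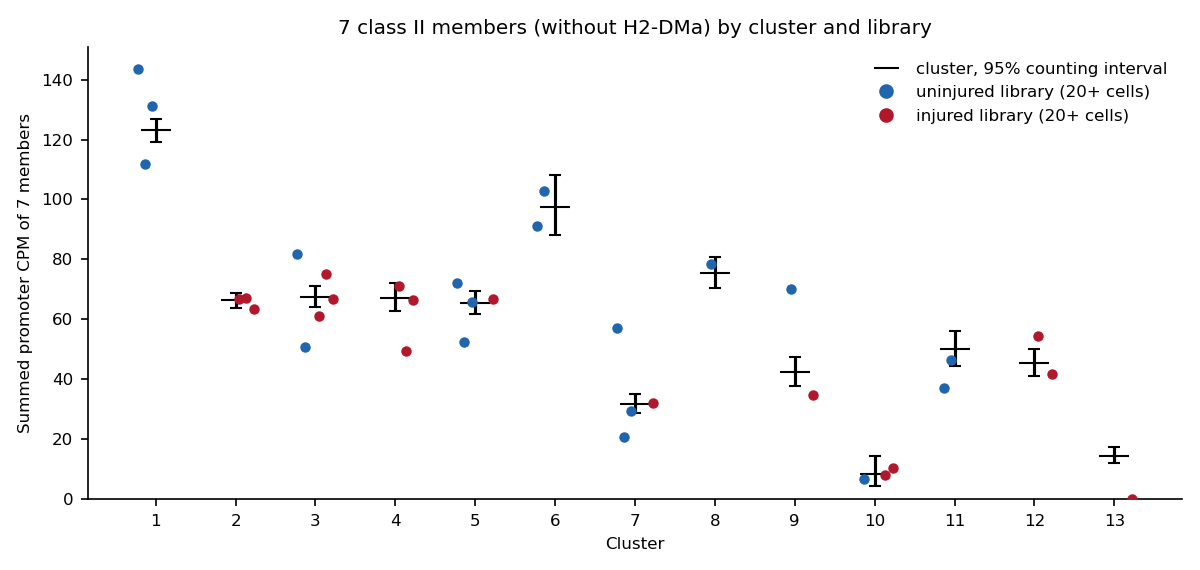
Summed promoter CPM of the 7 class II genes without H2-DMa (vertical axis) in each of 13 clusters, with the cluster level and 95% counting interval in black and points for libraries with 20 or more cells of that cluster. Cluster 1 is highest at 123 CPM, followed by cluster 6 at 97.7 CPM, and the uninjured and injured points of cluster 3 overlap.

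Clusters 1 and 6 were also highest on another scale. In CPM of promoter cut sites the 7 genes stood at 289 in cluster 1 and 260 in cluster 6, against 237 in cluster 13, 195 in cluster 2, 189 in cluster 8, 183 in clusters 3 and 4, 157 in cluster 5 and 94.6 to 142 in the rest. Cluster 13, with few of its cut sites in promoters, was thus among the lowest per total cut site and the third highest per promoter cut site. Its rank rests on few cells. The most open starts of H2-Ab1 had 22 cut sites in 3 of its cells, those of H2-Aa 15 in 3 cells and those of Cd74 had 0. This cluster also holds the barcodes of 1746401 and 555750 fragments. The third group of Ciita starts stood at 7.01 CPM per kb in cluster 1 (95% Poisson interval 6.14 to 7.98) and 6.51 in cluster 6 (4.25 to 9.53). It stood at 2.67 in cluster 2 (2.20 to 3.21), and in cluster 9 no cut site was found, which allows up to 0.399 CPM per kb (3 counts). Cluster 11 stood at 6.91 (4.96 to 9.38), but 16 of its 45 promoter cut sites of Ciita came from the 6 cells of uninjured replicate 1. In its libraries with 20 or more cells the promoter of Ciita stood at 5.70 and 1.55 CPM, in uninjured replicates 2 and 3, below the 10.7 and 7.42 CPM of cluster 1 there. Of the 22 cut sites of H2-Eb2 in cluster 11, 18 were in those 6 cells.

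The first starts of H2-Eb1 stood at 12.6 CPM per kb in cluster 1, 11.1 in cluster 6, 6.76 in cluster 2, 5.06 in cluster 5 and 3.97 in cluster 7. The inner start stood at 5.87, 5.19, 6.01, 6.65 and 5.18 CPM per kb in the same clusters, at 2.45 in cluster 11, at 4.15 to 7.07 in clusters 3, 4, 8, 9 and 12, and at 0 and 0.733 in clusters 10 and 13. H2-DMa with Brd2 stood at 61.6 to 124 CPM over the clusters other than 10 and 13, with its highest level in cluster 9.

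To compare shares of cells, each cell was thinned to 2000 fragments, which every cell had. At that depth a cut site in a promoter of the 7 genes was found in 23.6% (95% Wilson interval 19.9 to 27.7), 15.6% (13.4 to 18.2) and 16.7% (14 to 19.8) of uninjured cells. It was found in 12% (10.3 to 13.8), 12.9% (9.99 to 16.4) and 11.3% (9.19 to 13.7) of injured cells. Every injured library was below every uninjured one, although the interval of each injured library overlaps that of uninjured replicate 2. These shares are per total fragments, of which a smaller part lay in promoters after injury, and the same share over all promoters was not computed. Unthinned, the shares were 65.0, 51.6 and 69.3% against 52.7, 59.0 and 54.0%, and the groups overlapped. By cluster the thinned share was 24.1% in cluster 1, 18.7% in cluster 6, 12.8 to 16.9% in clusters 2, 3, 4, 5 and 8, and 6.60% (3.90 to 11) and 4.80% (2.22 to 10.1) in clusters 7 and 11. Cut sites at 2 or more of the 7 genes in the same thinned cell were found in 1.59 to 1.98% of uninjured and 0 to 0.673% of injured cells.

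Genes whose opening ran most like that of the class II genes were ranked by Pearson's r over 30 sums of a cluster in a library. By the 8 genes summed over gene bodies those highest in the order included Mgat1 (0.972), Txnrd1 (0.958), Hs6st1 (0.957), Arid1a (0.955), Tef (0.952), Itpkb (0.950), Adar, Psme2 and A730061H03Rik (0.948 each). H2-DMa is the largest part of that sum, with a mean of 126 CPM, and the r of Ciita with the sum was -0.136. Among the 30 sums those of clusters 10 and 13 lay far below the rest, at 18.1 to 58.3 CPM against 176 to 404 CPM. Such low sums can give a high r to any gene that is low in these clusters. The order is thus no sign of a likeness particular to class II genes. With the 7 other genes and clusters 1 to 6 and 8 alone, a form chosen after those values had been seen, the 10 highest over 21 sums were different. They were Cx3cl1 (0.871), Gm12185 (0.870), Prkar1b (0.859), Gapdh (0.844), Sdk1 (0.840), Vwa3b (0.835), Zfp286 (0.832), Slc29a1 (0.830), Phykpl (0.814) and Xab2 (0.812). Cx3cl1, which encodes the chemokine fractalkine, stood at 114 CPM in clusters 1 and 6 and at 62.0 CPM in the others, and Gm12185 at 31.4 and 11.1 CPM. The sums share libraries and depth, and no p was computed.

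The genes around the class II pathway were taken from 6 lists of 82 genes, of which 78 could be tested between the groups across all 18466 promoters by edgeR. Of these, 6 fell and 2 rose at a Benjamini-Hochberg adjusted p under 0.05, beside 1.78% and 2.56% of all promoters, and their median log2 difference was -0.12 against 0.01. No list as a whole was tested.

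Of 14 transcription factors and cofactors of class II and class I genes, 1 fell, 1 rose and the median was -0.12. Nlrc5, the relative of CIITA that drives class I genes, fell from 19.6, 18.1 and 15.5 CPM to 8.96, 9.29 and 10.3 CPM, with no overlap (log2 difference -0.64, SE 0.13, edgeR adjusted p 0.0221). Prdm1, which encodes the repressor BLIMP1, rose from 27.9, 28.1 and 33.7 CPM to 41.8, 41.1 and 36.2 CPM (0.67, SE 0.11, edgeR adjusted p 0.00851). The subunits of the RFX complex, which binds the X box, did not pass, at 0.06 for Rfx5, 0.06 for Rfxap and -0.12 for Rfxank (edgeR adjusted p 0.81, 0.754 and 0.363). With 1 library left out, Nlrc5 passed only without uninjured replicate 3 or injured replicate 3. Leaving out uninjured replicate 1, uninjured replicate 2, injured replicate 1 or injured replicate 2 gave edgeR adjusted p of 0.111, 0.0999, 0.0943 and 0.0892, and the gene body window gave 0.139. Prdm1 stood at edgeR adjusted p 0.0532, 0.0547 and 0.0698 without uninjured replicate 1, injured replicate 1 and injured replicate 2, and at 0.0504 over the gene body.

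Of 13 tested genes of interferon-gamma signalling 3 fell, none rose and the median was -0.22. Irf1, a transcription factor induced by interferon-gamma, fell from 54.0, 43.9 and 43.9 CPM to 21.0, 22.2 and 26.1 CPM. Every injured library was far below every uninjured one (log2 difference -0.77, SE 0.10, edgeR adjusted p 0.00266), and the call held in all 13 other settings and with each library left out. Socs3, an inhibitor of cytokine signalling, fell from 98.4, 80.5 and 79.1 CPM to 51.5, 46.5 and 59.8 CPM (-0.45, SE 0.09, edgeR adjusted p 0.0196). Ptpn2, a phosphatase that restrains JAK signalling, fell from 60.6, 59.0 and 58.1 CPM to 38.8, 37.3 and 42.9 CPM (-0.32, SE 0.07, edgeR adjusted p 0.0243). Of the 3 that fell, Socs3 and Ptpn2 are known as brakes on the pathway. Without uninjured replicate 1, uninjured replicate 2, injured replicate 1 and injured replicate 2 the edgeR adjusted p was 0.0857, 0.0587, 0.0721 and 0.1 for Socs3 and 0.0934, 0.103, 0.0824 and 0.0987 for Ptpn2. Ptpn2 also stood at 0.0505 without immune-marked cells and 0.0706 over the gene body.

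The receptor genes did not pass the test: Ifngr1 stood at -0.14 (edgeR adjusted p 0.354) and Ifngr2 at -0.27 (0.192). Ifng was too low to test.

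Of 19 genes of class I presentation 2 fell and none rose, with a median of -0.15. Tap1, a subunit of the peptide transporter, fell from 51.1, 43.4 and 41.5 CPM to 28.4, 28.6 and 26.5 CPM (-0.44, SE 0.10, edgeR adjusted p 0.0291). Psmb9, an immunoproteasome subunit, fell from 47.3, 40.6 and 37.1 CPM to 27.0, 25.6 and 24.2 CPM (-0.44, SE 0.10, edgeR adjusted p 0.0367). These genes lie head to head and their windows share cut sites, so they are not separate evidence. Without uninjured replicate 1, uninjured replicate 2, injured replicate 1 and injured replicate 2 the edgeR adjusted p was 0.131, 0.0898, 0.0824 and 0.086 for Tap1 and 0.149, 0.114, 0.0808 and 0.112 for Psmb9. Psmb9 also stood at 0.0633 without immune-marked cells and 0.0527 with windows of 500 bp. B2m, the light chain of class I molecules, stood at -0.43 (edgeR adjusted p 0.0843), Psmb8 at -0.37 (0.0535) and H2-K1 at -0.33 (0.191).

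Of 9 tested genes of the rest of the class II pathway none passed in either direction, with a median of 0.02, and Ctss and Ifi30 were too low to test. The cathepsins Ctsl, Ctsb and Ctsd stood at -0.20, -0.10 and -0.30 (edgeR adjusted p 0.319, 0.536 and 0.094). Of 13 costimulators and coinhibitors 1 rose and none fell, with a median of 0.09. That gene was Vtcn1, the coinhibitor B7-H4, which stood at 6.68, 6.64 and 8.46 CPM before and rose to 14.8, 14.9 and 9.81 CPM (1.12, SE 0.21, edgeR adjusted p 0.014). Injured replicate 3 was nearest to the uninjured libraries. Without uninjured replicate 1, uninjured replicate 2, injured replicate 1 and injured replicate 2 its edgeR adjusted p was 0.0857, 0.0687, 0.0863 and 0.0971, and over the gene body it was 0.0859. Of 10 tested neighbours of the class II genes, of Ciita or of Cd74 none passed, with a median of -0.14, and Dexi beside Ciita stood at -0.05 and Brd2 beside H2-DMa at -0.03 (edgeR adjusted p 0.777 and 0.812).

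**Figure D5:**
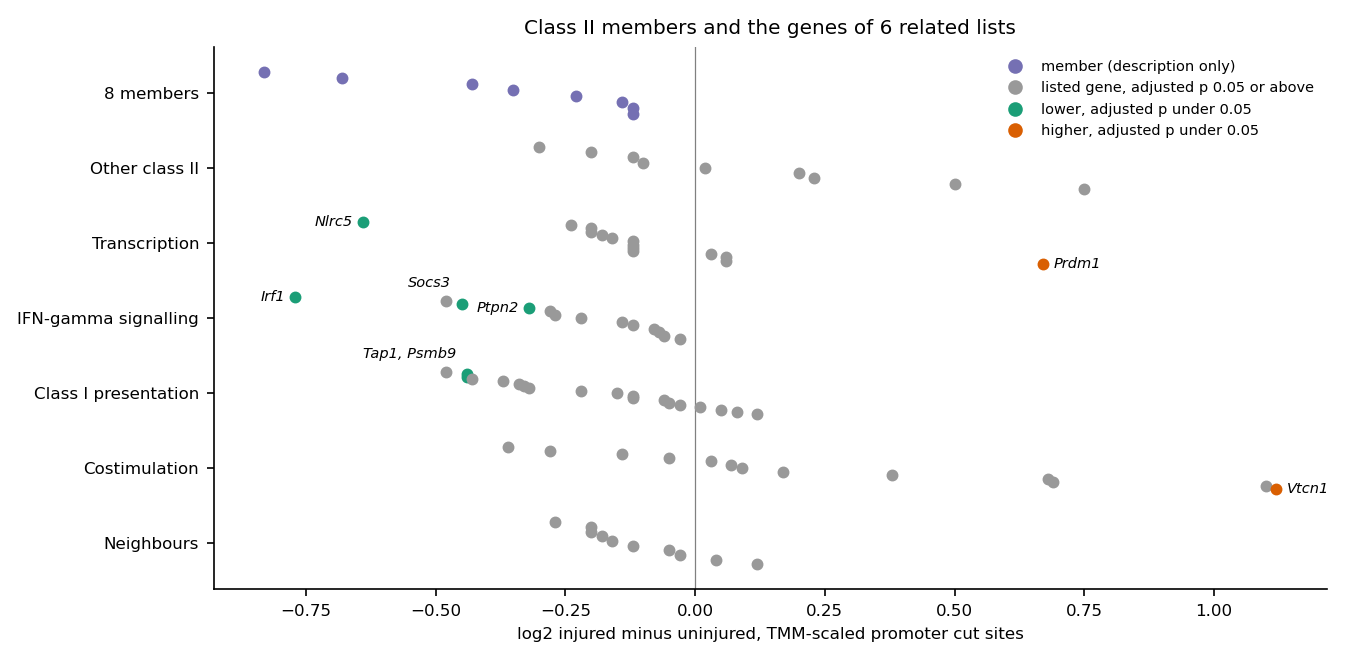
Log2 difference in TMM-scaled promoter cut sites, injured minus uninjured (horizontal axis), for the 8 class II genes, shown as a description, and for the tested genes of 6 related lists, a point per gene. All 8 class II genes lie below 0; of the listed genes the 6 that fell and the 2 that rose at an adjusted p under 0.05 are named.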

How the data were processed

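Single-cell ATAC-seq was made from 3 uninjured and 3 injured samples, described as biological replicates per the labels. The authors deposited, per library, fragments with barcodes and raw counts per peak and barcode. The submitters' processing notes name Cell Ranger 2.0.0 and build mm10, while the matrix headers name software version 1.2.0, which was not used to choose any step. The deposited peak counts were not used for levels. Both ends of each deposited fragment were counted once as cut sites, whatever its number of read pairs, in GENCODE M21 windows (GRCm38). Libraries held 8100227 to 23937953 fragments. Cells were barcodes with 2000 or more fragments. Doublets, 14.5 to 20.0% of cells by stretches covered by more than 2 fragments, were kept.

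Cut sites were summed per library. Groups were compared over all promoters by edgeR 4.0.16 (quasi-likelihood, robust, TMM, filterByExpr, R 4.3.3) with Benjamini-Hochberg adjustment. DESeq2 1.42.0, other cell sets, windows, scalings, a replicate block and leaving out each library were alternatives. On data simulated for this comparison, 86 of 100 promoters changed by 1 on the log2 scale and 99 of 100 changed by 2 were recovered, with 14 false calls among 18466. Changes were planted only in better covered promoters, and all simulated libraries shared the same mean profile, without a shift in cell mix. Recovery of differences below 1, such as those of the class II genes in the main fit, was not measured. Differences in CPM are of log2(CPM + 1). The Leiden clustering (scanpy 1.11.5) used TF-IDF, 30 components, 15 neighbours and resolution 0.5.

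The members, the lists and the tests were chosen with earlier results of these data known. Named are the 8 members, listed genes past 0.05 with a mean of 5 CPM or more, and the 10 genes most like the members, except results that are not reported here. RFX genes, receptors, B2m, Psmb8, H2-K1, cathepsins and neighbours were added after their values were seen.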

Additional observations from a re-analysis of the deposited data

How the results depend on the processing

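The class II level of -0.50 was -0.25 with TMM in place of total cut sites and -0.57 to -0.38 with each library left out. Without immune-marked cells it was -0.46, and then -0.53 to -0.31 with each library left out. With TMM the level without these cells was -0.20. That value used the TMM sizes of all cells, scaled by the share of each library's cut sites that lay outside immune-marked cells. TMM sizes computed without immune-marked cells were not used for this sum. In no setting did either level turn positive. In log2(CPM + 1) H2-Eb2 alone of the 8 genes turned, from -0.15 to 0.07 without doublets and 0.23 without uninjured replicate 1. In the TMM fit without uninjured replicate 1 H2-DMb1 turned too, to 0.07. Without barcodes shared between libraries, an alternative added after seeing the data, the 2 levels were -0.45 and -0.47.

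Over all promoters 473 were called higher and 329 lower. Higher calls were 727 over gene bodies, 950 with the replicate block and 799 by DESeq2. Lower calls were 170 without immune-marked cells, 215 with 20% of cut sites in open regions, 568 over gene bodies, 6191 with total cut sites, 1030 with the replicate block and 652 by DESeq2. The share of calls that were higher was 59.0% with TMM and 7.08% with total cut sites. Listed genes called higher, 2, were 0 over gene bodies, and those called lower, 6, were 50 with total cut sites, 14 with the replicate block and 12 by DESeq2. With each library left out, higher calls ranged from 20 to 923 and lower from 4 to 795, and for listed genes from 0 to 3 and from 1 to 9. Calls were fewest without injured replicate 2 (20 and 4), then injured replicate 1 (61 and 24), uninjured replicate 1 (83 and 16) and uninjured replicate 2 (138 and 51), and most without injured replicate 3. Same-numbered libraries deviated together with correlations of 0.070, 0.210 and 0.257. Injured replicate 1 was closer to uninjured replicate 2 (0.115), and the remaining pairs stood at -0.270 to -0.012. Whether same-numbered libraries are pairs was not settled. The main fit did not pair them, while the replicate block, with its calls above, did. The cause of the shifts in calls was not tested. Leaving out clusters led by immune markers was planned, and which clusters this meant, those with an immune list highest (10 and 13), was settled after seeing the data. It left 452 promoters called higher and 222 lower, and the 8 listed genes kept their calls. Depth limits H2-Eb2, which had the lowest CPM of the 8.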
